A study of Mus musculus with 6 samples.

Results

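The sensory neuropeptides examined were 10 genes taken by name, and not by their values, from a table of 24264 genes: Tac1, Calca, Calcb, Adcyap1, Gal, Sst, Nppb, Npy, Penk and Vip. All 10 were found in the table. RNA sequencing had been done on lumbar dorsal root ganglia of mouse embryos at E12.5, with 3 miR_cKO libraries and 3 control libraries. The miR_cKO embryos carried Wnt1-Cre and 2 floxed alleles (flox/flox) of the miR-183-96-182 cluster. Wnt1-Cre is active in the neural crest lineage, so the deletion covers glia as well as most sensory neurons. Controls were Wnt1-Cre mice from the same matings, but only controls 1 and 3 are titled Wnt-Cre, and control 2 is titled WT. All embryos were on a mixed C57/Bl6 x 129/SvEv background. The sources used here do not say whether a library holds 1 embryo or several, so p-values measure the spread between these libraries.

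Neuropeptides are short secreted signals cut from longer precursor proteins, packed in dense-core granules and released onto G protein-coupled or guanylyl cyclase receptors. In adult ganglia they divide pain, itch and touch neurons into classes: substance P from Tac1 and CGRP from Calca and Calcb mark peptidergic nociceptors, Sst and Nppb mark itch neurons, and Gal, Npy and Vip are known for their induction after nerve injury. At E12.5 sensory neurons are newly born and most of these adult classes have not yet formed.

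The libraries held an estimated 20.3 to 24.4 M reads. Mir183, Mir96 and Mir182 were listed at 0 in all 6, and since poly(A) libraries hold few microRNA precursors, these zeros check nothing. Sensory neuron identity was clear: all 13 marker genes of the sensory neuron list were at 1 RPKM (reads scaled by transcript length and by library depth) or more in every library. Their summed level was 3135, 2655 and 2164 RPKM in miR_cKO 1 to 3 and 2573, 2086 and 2632 RPKM in controls 1 to 3. 1 library stood apart in a sex-linked gene: Xist was at 96.0 RPKM in miR_cKO 1 and at no more than 0.0890 RPKM elsewhere. Muscle markers summed to 29.7, 31.9 and 40.5 RPKM in miR_cKO 1 to 3 and to 31.0, 165 and 129 RPKM in controls 1 to 3.

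Of the 10 neuropeptide genes, 4 were on in every library, where on means 1 RPKM or more. These were Gal, Npy, Adcyap1 and Penk. Over the whole table of 24264 genes, 12928 (miR_cKO 1) to 13232 (control 3) were on in a given library. That is a looser rule than on in every library, for which no count over all genes is given here. By a shared rule, 1 RPKM or more in at least 3 libraries, 5 of the 10 genes passed, beside 13118 of the 24264. Tac1, Calca, Calcb and Sst reached 1 RPKM in 1 to 3 libraries, and Nppb and Vip in none. The mean over the 6 libraries was 26.1 RPKM for Gal, 9.24 RPKM for Npy, 6.69 RPKM for Adcyap1 and 2.26 RPKM for Penk. It was 1.16 RPKM for Tac1, 1.12 RPKM for Sst, 0.961 RPKM for Calca, 0.534 RPKM for Calcb, 0.107 RPKM for Nppb and 0.0154 RPKM for Vip. By mean level Gal stood above 88.0% of all genes of the table and Tac1 above 46.9%.

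Neighbours in this order were often not separate. Gal exceeded Npy in 4 of 6 libraries, Npy exceeded Adcyap1 in 5, and Adcyap1 exceeded Penk in 6. Tac1, Sst and Calca could not be ranked by library: Tac1 was above Sst in 2 of 6 and Sst above Calca in 2 of 6. Calca exceeded Calcb in 5 of 6 libraries and Calcb exceeded Nppb in 6.

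**Figure D1:**
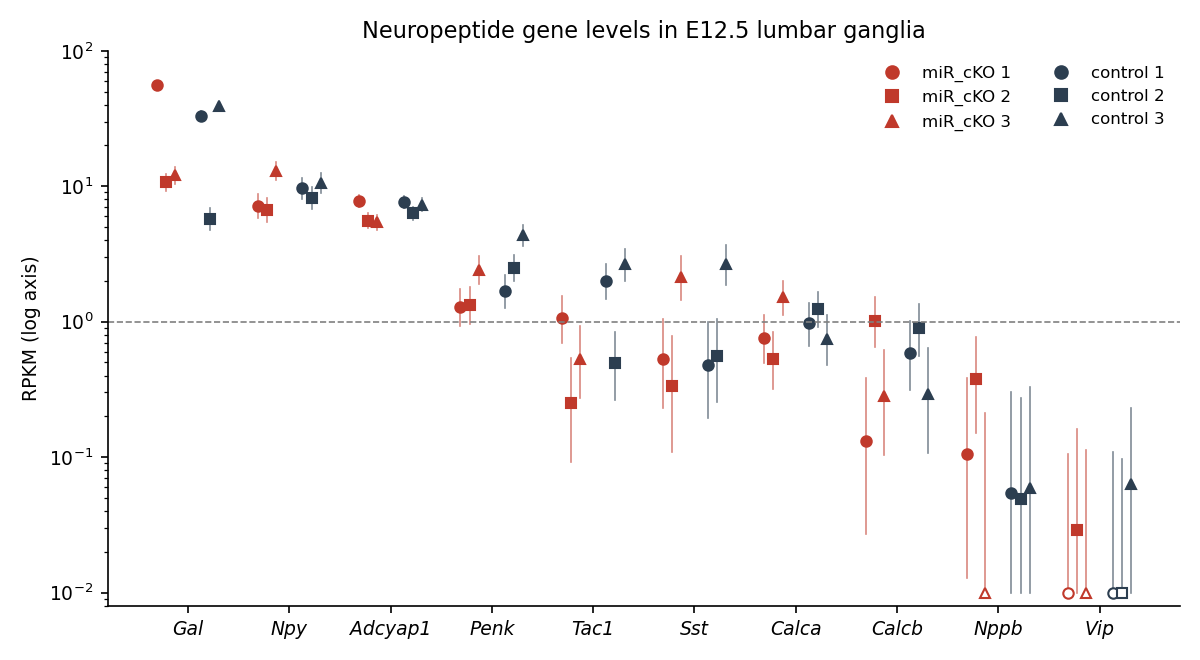
Levels of the 10 neuropeptide genes (RPKM, log axis) in each library, miR_cKO in red left of control in dark blue, with the library number as the symbol. Bars are 95% exact Poisson intervals of the recovered reads, open symbols at the bottom are values of 0, and the dashed line is 1 RPKM; Gal, Npy, Adcyap1 and Penk lie above it in all 6 libraries.

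Gal was the leading neuropeptide gene by mean level and, on the log2(RPKM + 1) scale, the most uneven of the 10. Gal encodes galanin, a peptide that acts on inhibitory and excitatory receptors of sensory neurons (GENCODE M21 on mm10, chromosome 19, 3409915 to 3414544, minus strand). Its level was 55.7, 10.7 and 12.0 RPKM in miR_cKO 1 to 3 and 32.9, 5.76 and 39.2 RPKM in controls 1 to 3. The libraries of both groups were thus spread over the same span, and the highest and the lowest library differed 9.67-fold. Counting error is small beside this span: miR_cKO 1 had 959 reads (95% exact Poisson interval 52.2 to 59.3 RPKM) and control 2 had 107 reads (4.72 to 6.96 RPKM). Gal made up 74.7% of the summed RPKM of the 10 genes in miR_cKO 1 and 22.1% in control 2. Its spread around the group means, an SD of 1.35 on the log2(RPKM + 1) scale, was larger than that of 99.9% of the 13118 genes tested, whose median was 0.13. The summed sensory neuron markers, given above, varied far less between libraries.

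Adcyap1 had the narrowest span of the 8 genes with reads in every library. Adcyap1 encodes PACAP, a peptide that raises cyclic AMP (chromosome 17, 93199168 to 93206535, plus strand). It was at 7.83, 5.58 and 5.44 RPKM in miR_cKO 1 to 3 and at 7.66, 6.32 and 7.31 RPKM in controls 1 to 3. The groups overlapped, with a 1.44-fold span over all 6 libraries and 238 to 370 reads in each. Its receptor gene Adcyap1r1 was on in all libraries, at 20.8, 10.9 and 12.1 RPKM in miR_cKO 1 to 3 and at 14.1, 7.37 and 14.4 RPKM in controls 1 to 3.

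Tac1, the precursor gene of substance P and neurokinin A, was detected in every library and lay around the 1 RPKM that counts as on. It was at 1.06, 0.249 and 0.530 RPKM in miR_cKO 1 to 3 and at 2.00, 0.493 and 2.65 RPKM in controls 1 to 3. Controls 1 and 3 were the highest libraries, while control 2 lay below miR_cKO 1 and 3, so the groups overlapped. These values rest on 26, 6 and 12 reads in miR_cKO 1 to 3 and on 47, 13 and 58 reads in controls 1 to 3. The span over libraries was 10.6-fold.

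Tac1 was the one gene of the 10 with a seed match to the deleted microRNAs in an annotated 3 prime UTR. The mature microRNAs are shown because their seeds (bases 2 to 8, in capitals) define which messages they can bind; the sequences are from RefSeq (GRCm38.p6, minus strand, at chr6:30169711-30169732, chr6:30169506-30169528 and chr6:30165962-30165986 in the order shown), and miR-96 and miR-182 share all seed bases except the last.
mmu-miR-183-5p: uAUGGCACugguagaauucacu
mmu-miR-96-5p: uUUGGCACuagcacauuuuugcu
mmu-miR-182-5p: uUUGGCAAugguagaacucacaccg
The Tac1 site pairs with the miR-96 seed (capitals) and lies on chromosome 6 at 7562585 to 7562591, plus strand, in mm10, starting at base 153 of a 3 prime UTR of 545 bases; the median 3 prime UTR of tested genes had 1099 bases.
Tac1 site: ttttcatattGTGCCAAtaagccttgt
The search took matches to bases 2 to 8 of a seed, or to bases 2 to 7 followed by A, in all annotated coding transcripts of the 10 genes. Of tested genes with a 3 prime UTR, 33.8% carried such a match. The match is a description of the letters: Tac1 itself was at 0.614 ± 0.414 RPKM in miR_cKO and 1.71 ± 1.10 RPKM in controls (SD, n = 3 each).

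Npy did not follow the library order of Gal. Neuropeptide Y (chromosome 6, 49822710 to 49829507, plus strand) restrains transmitter release through Y receptors. Its gene was at 7.19, 6.71 and 13.0 RPKM in miR_cKO 1 to 3 and at 9.70, 8.20 and 10.6 RPKM in controls 1 to 3. The highest library was miR_cKO 3, where the spinal cord markers were also highest, at a sum of 19.3 RPKM. That sum was 4.63 and 1.88 RPKM in miR_cKO 1 and 2 and 2.30, 5.15 and 5.07 RPKM in controls 1 to 3. The part of spinal cord RNA in the Npy level was not tested.

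Penk, which encodes the enkephalin opioid peptides, was on at a low level (chromosome 4, 4133531 to 4138477, minus strand). It was at 1.29, 1.34 and 2.42 RPKM in miR_cKO 1 to 3 and at 1.69, 2.50 and 4.34 RPKM in controls 1 to 3. Controls 2 and 3 and miR_cKO 3 were highest. The summed mesenchyme markers ran alike, at 205, 273 and 301 RPKM in miR_cKO 1 to 3 and at 233, 390 and 432 RPKM in controls 1 to 3, with none of the 12 markers at 0 in all libraries. In both Penk and this sum the order of the leading libraries was control 3, control 2 and miR_cKO 3, and miR_cKO 1 was last. The part of mesenchyme in the Penk level was not tested, and in whole ganglia fewer cells of a type and less RNA per cell cannot be told apart.

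Sst, the somatostatin gene, was carried by 1 library of each group. It was at 0.531, 0.336 and 2.15 RPKM in miR_cKO 1 to 3 and at 0.482, 0.554 and 2.66 RPKM in controls 1 to 3. With 30 reads in miR_cKO 3 and 36 in control 3, and 5 to 9 reads in the other 4 libraries, the 95% Poisson intervals of the high libraries (1.45 to 3.07 RPKM and 1.87 to 3.69 RPKM) did not overlap those of the rest, which reached 1.05 RPKM. Of the 14 spinal cord markers, 6 were highest in miR_cKO 3, 3 in miR_cKO 1, 2 in control 2 and 2 in control 3. Their sum, given above for Npy, was as high in control 2, where Sst was low, as in control 3. Among the 6, Pax2, a factor of spinal interneurons, was at 4.66 RPKM in miR_cKO 3 and at 1.17 RPKM in control 3. It was at most 0.935 RPKM in the other 4 libraries. Lbx1 was also second in control 3, but at 0.590 RPKM there and 0.580 RPKM in control 2. Lhx5 was at 5.23 RPKM in miR_cKO 3, at 0.784 RPKM in control 3 and at 1.00 RPKM in control 2. Gsx1 and Ptf1a were at 0 in control 3 and at 0.551 and 0.160 RPKM in control 2. Pax6 was higher in miR_cKO 1 (1.497 RPKM) than in control 3 (1.03 RPKM). The remaining marker, Mnx1 of motor neurons, was listed at 0 in all 6. The part of spinal cord RNA in the Sst level was not tested.

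Both CGRP genes were detected in every library, mostly below 1 RPKM. Calca gives calcitonin or alpha-CGRP by alternative splicing, and the table has 1 value for both forms. It was at 0.759, 0.533 and 1.51 RPKM in miR_cKO 1 to 3 and at 0.969, 1.25 and 0.749 RPKM in controls 1 to 3, with 18 to 48 reads in each. Calcb, which encodes beta-CGRP, was at 0.131, 1.02 and 0.283 RPKM in miR_cKO 1 to 3 and at 0.589, 0.891 and 0.292 RPKM in controls 1 to 3, with 3 to 23 reads. Neither gene separated the groups, and their highest libraries differed, miR_cKO 3 for Calca and miR_cKO 2 for Calcb. Reads between these paralogs could be confused: 11 of the 945 windows of 50 bases in the main Calca transcript also occur in that of Calcb.

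Nppb and Vip were at the edge of detection. Nppb, the natriuretic peptide gene that marks itch neurons in the adult, had 2, 7 and 0 reads in miR_cKO 1 to 3 and 1 read in each control, which corresponds to 0.105, 0.374 and 0 RPKM in miR_cKO 1 to 3 and to 0.0547, 0.0489 and 0.0588 RPKM in controls 1 to 3. The 95% Poisson interval of miR_cKO 2 (0.150 to 0.771 RPKM) overlapped that of every other library. Vip, which encodes vasoactive intestinal peptide, had 1 read in miR_cKO 2, 2 reads in control 3 and 0 in the other 4 libraries. In miR_cKO 3 a count of 0 allows up to 0.0924 RPKM of Vip (3 reads, a one-sided limit), and the two-sided 95% Poisson interval reached 0.114 RPKM. Intervals and limits cover counting error only.

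No neuropeptide gene was shown to differ between miR_cKO and control ganglia beyond the spread of the libraries. Of the 5 genes that reached 1 RPKM in at least 3 libraries and so entered the fit, 0 passed (limma, Benjamini-Hochberg adjusted p under 0.05), beside 8 of 13118 tested genes (0.061%), 0.0534% higher and 0.00762% lower in miR_cKO. At an unadjusted p under 0.05 the count was also 0 of 5, beside 5.16% of all tested genes, 2.85% higher and 2.31% lower in miR_cKO. This count was 1 in each of 4 of the 6 fits that left out a library. The groups overlapped for all 5, while they did not overlap for 10.9% of all tested genes. All 5 log2 changes were below 0, as were 59.6% of those of all tested genes. The median change was -0.16 for the 5 and -0.024 for all tested genes.

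The size of the change was bounded unevenly. Tac1 had the change farthest from 0, -0.68 on the log2(RPKM + 1) scale (SE 0.35, 95% interval -1.52 to 0.16, limma adjusted p = 1.00). It was -1.06 without control 2, the library titled WT, and -1.25 with a pseudocount of 0.1. Penk followed at -0.49 (SE 0.28, interval -1.14 to 0.17), with 1.68 ± 0.639 RPKM in miR_cKO and 2.85 ± 1.36 RPKM in controls (SD, n = 3 each). It was -0.22 without control 3. Adcyap1 was at -0.16 (interval -0.50 to 0.17) and Npy at -0.12 (interval -0.67 to 0.43). For Gal the change was -0.030 with an interval of -2.02 to 1.96, so a change of either sign as large as most named here lies within its error. Without a single library the Gal change ran from -0.85 without control 2 to 0.44 without control 3.

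**Figure D2:**
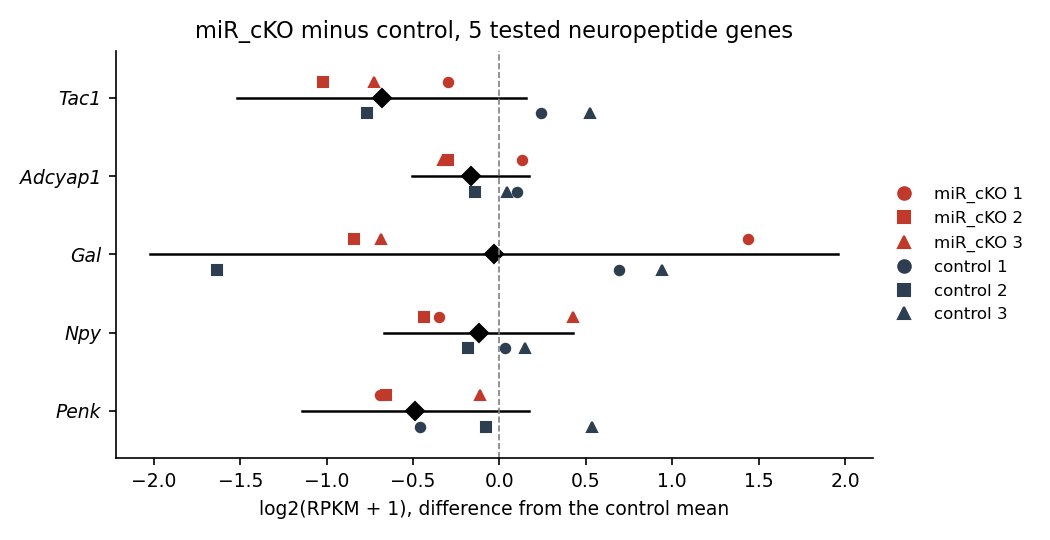
Difference from the control mean on the log2(RPKM + 1) scale for the 5 tested genes. Coloured symbols are libraries, miR_cKO above control, and diamonds with lines are the limma change and its 95% interval; every interval includes 0, and that of Gal runs from -2.02 to 1.96.

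The other 5 genes did not enter the fit and were compared with a two-sided exact permutation test over the 6 libraries, whose smallest possible p is 0.1. The difference in mean log2(RPKM + 1), miR_cKO minus control, was -0.063 for Calca (exact permutation p = 0.9), -0.14 for Calcb (exact p = 0.7) and -0.13 for Sst (exact p = 0.6). It was 0.13 for Nppb (exact p = 0.7) and -0.016 for Vip (exact p = 1). A p of this kind does not show that the groups are alike.

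The variation that was large ran between libraries and across the miR_cKO and control groups. Gal, Tac1 and Adcyap1 had the same 3 libraries on top, miR_cKO 1, control 3 and control 1, a pattern described after the values were seen and given with no test. Of the 13118 tested genes 1638 had the same 3 on top. Among genes of pain-sensing neurons, all 6 tested effectors did so, the sodium channel genes Scn9a and Scn10a, the capsaicin receptor gene Trpv1, P2rx3, Ptgir and Prph, and so did 6 of 13 nociceptor factors. Tac1 and Trpv1 reached 1 RPKM only in miR_cKO 1, control 1 and control 3, so being tested at all put these 3 on top. Scn10a was at 22.1, 7.45 and 6.72 RPKM in miR_cKO 1 to 3 and at 22.8, 8.72 and 27.7 RPKM in controls 1 to 3. Trpv1 spanned 7.50-fold over the libraries, Scn10a 4.11-fold and Runx1, a factor of nociceptor differentiation, 3.77-fold, next to 9.67-fold for Gal. Xist was high in miR_cKO 1 and near 0 in controls 1 and 3, and the part of sex in this pattern was not tested.

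**Figure D3:**
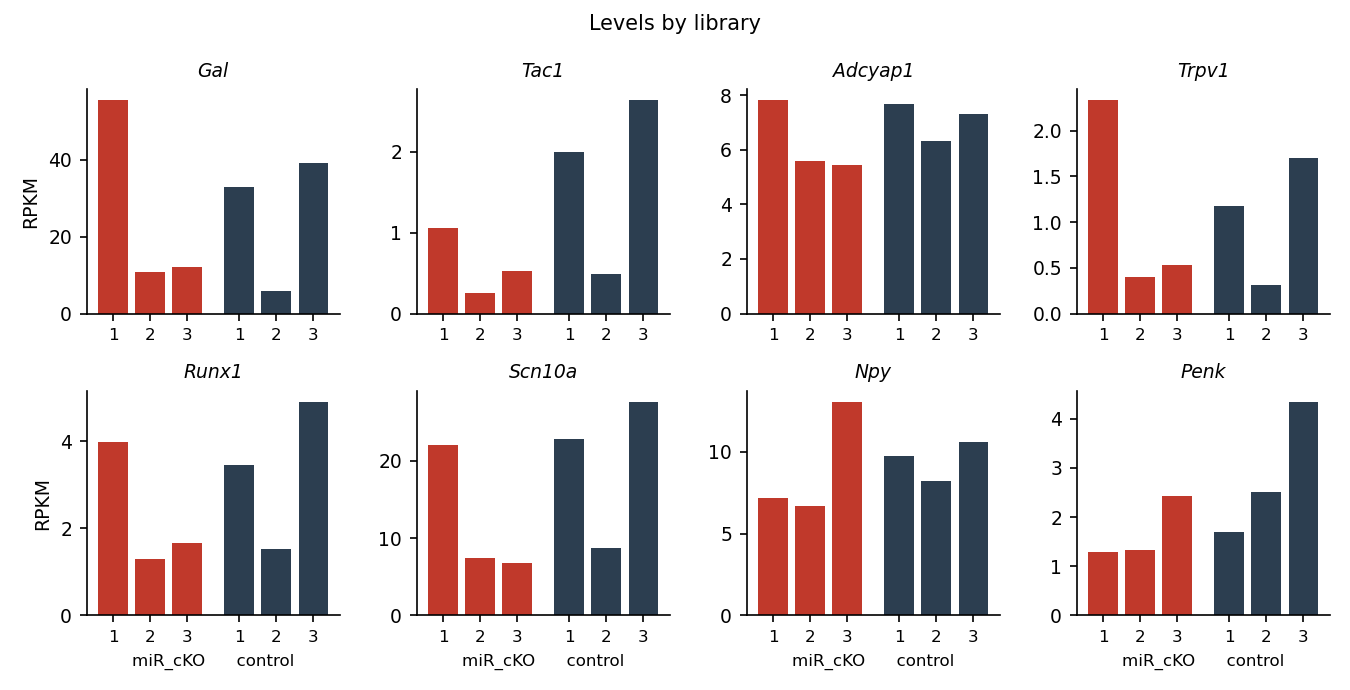
RPKM in each library, miR_cKO 1 to 3 in red left of controls 1 to 3 in dark blue, for 5 neuropeptide genes and 3 genes of pain-sensing neurons. Gal, Tac1, Adcyap1, Trpv1, Runx1 and Scn10a are highest in miR_cKO 1 and controls 1 and 3, while Npy is highest in miR_cKO 3 and Penk in control 3.

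Sympathetic neurons lie close to the ganglia and can express Gal, Npy, Sst and Vip. Their summed markers were at 49.5, 28.4 and 45.1 RPKM in miR_cKO 1 to 3 and at 40.1, 26.3 and 51.7 RPKM in controls 1 to 3. Dbh, which makes noradrenaline from dopamine, and Slc6a2, the noradrenaline transporter gene, were near 0: Dbh did not exceed 0.158 RPKM and Slc6a2 0.0150 RPKM in any library. Th, which some sensory neurons also express, was between 9.33 and 31.6 RPKM in miR_cKO and between 8.57 and 36.9 RPKM in controls, highest in the same 3 libraries as Gal.

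The genes with the most similar profile over the 6 libraries were ranked by Pearson r of log2(RPKM + 1) among the 13117 other tested genes, so high values are a product of the selection. For Gal they were 0610010F05Rik (r 0.998), Cckar, a cholecystokinin receptor gene (0.997), and Gltpd1 (0.996). Cckar was at 3.36, 1.48 and 1.46 RPKM in miR_cKO 1 to 3 and at 2.51, 0.909 and 2.92 RPKM in controls 1 to 3. For Tac1 they were Wdr19, AB099516 and Tmem200c (r 0.995 to 0.992), and for Adcyap1 Htt, Kcnb2 and Sergef (r 0.990 to 0.987). Npy was closest to Ccdc51, Atxn7l3b and Glt8d1 (r 0.988 to 0.980) and Penk to Lysmd3, Selenbp1 and Zfp799 (r 0.993 to 0.988). These r values describe 6 points only.

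Receptors for several of these peptides were on in the same ganglia, and none of the 12 tested receptor genes passed the threshold, with 9 changes above 0 and 3 below (median 0.15). Of the 30 receptor genes in the table, 11 were at 1 RPKM or more in every library. Npr2, the receptor for the natriuretic peptide CNP, was the most abundant, at 126, 98.7 and 80.7 RPKM in miR_cKO 1 to 3 and at 128, 101 and 129 RPKM in controls 1 to 3. The gene of CNP, Nppc, is not among the neuropeptide genes examined. For the CGRP receptor, Calcrl was at 3.73 RPKM in miR_cKO and 3.12 RPKM in controls on average, while its partner Ramp1 did not exceed 0.0663 RPKM and Ramp2, the partner for adrenomedullin, was at 14.3 RPKM in miR_cKO and 12.9 RPKM in controls. Calcrl, Ramp2 and the summed endothelium markers were all highest in miR_cKO 2 and lowest in miR_cKO 1. Which cells of the ganglia carried the receptor transcripts was not tested. The substance P receptor gene Tacr1 lay between 0.938 and 1.44 RPKM, and the mu opioid receptor gene Oprm1 did not exceed 0.0549 RPKM. The galanin receptor gene Galr1 did not exceed 0.0324 RPKM.

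For 3 receptor genes every miR_cKO library lay above every control, without the gene passing the test. The galanin receptor gene Galr2 was at 1.55, 1.45 and 1.18 RPKM in miR_cKO 1 to 3 and at 1.01, 1.14 and 1.09 RPKM in controls 1 to 3 (log2 change 0.20, SE 0.12, limma adjusted p = 1.00). Npy1r, a neuropeptide Y receptor gene, was at 3.04 ± 0.319 RPKM in miR_cKO and 2.58 ± 0.0532 RPKM in controls (SD, n = 3 each), and Sstr2, a somatostatin receptor gene, at 9.71 ± 0.199 RPKM in miR_cKO and 8.88 ± 0.639 RPKM in controls. Oprl1, the nociceptin receptor gene, was at 7.36 ± 0.541 RPKM in miR_cKO and 5.42 ± 1.29 RPKM in controls, with overlapping groups, and had the smallest p of the receptors (log2 change 0.40, SE 0.15, limma adjusted p = 0.855). The groups did not overlap for 3 of 12 receptor genes, beside 10.9% of all tested genes.

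Transcripts of the machinery that makes and stores peptides were present at E12.5. Of 20 genes for processing and granules, 17 were at 1 RPKM or more in every library. None of the 19 tested passed the threshold; 7 changes were above 0 and 12 below. Cpe, which trims peptide ends, was at 168, 136 and 132 RPKM in miR_cKO 1 to 3 and at 148, 130 and 160 RPKM in controls 1 to 3. The convertase gene Pcsk2 was at 11.8 ± 2.10 RPKM in miR_cKO and 13.9 ± 2.36 RPKM in controls, and Pcsk1 at 1.02 RPKM in miR_cKO and 1.16 RPKM in controls on average. Pam, which amidates CGRP, substance P and galanin among others, was between 15.3 and 17.0 RPKM in miR_cKO and between 15.97 and 17.0 RPKM in controls. Pcsk5, Furin and Vgf, the other genes of this list with the smallest p, had log2 changes of -0.18, -0.22 and -0.33. The summed level of the 10 neuropeptide genes spanned 2.87-fold over the libraries and that of this list 1.31-fold, with no test of the difference.

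**Figure D4:**
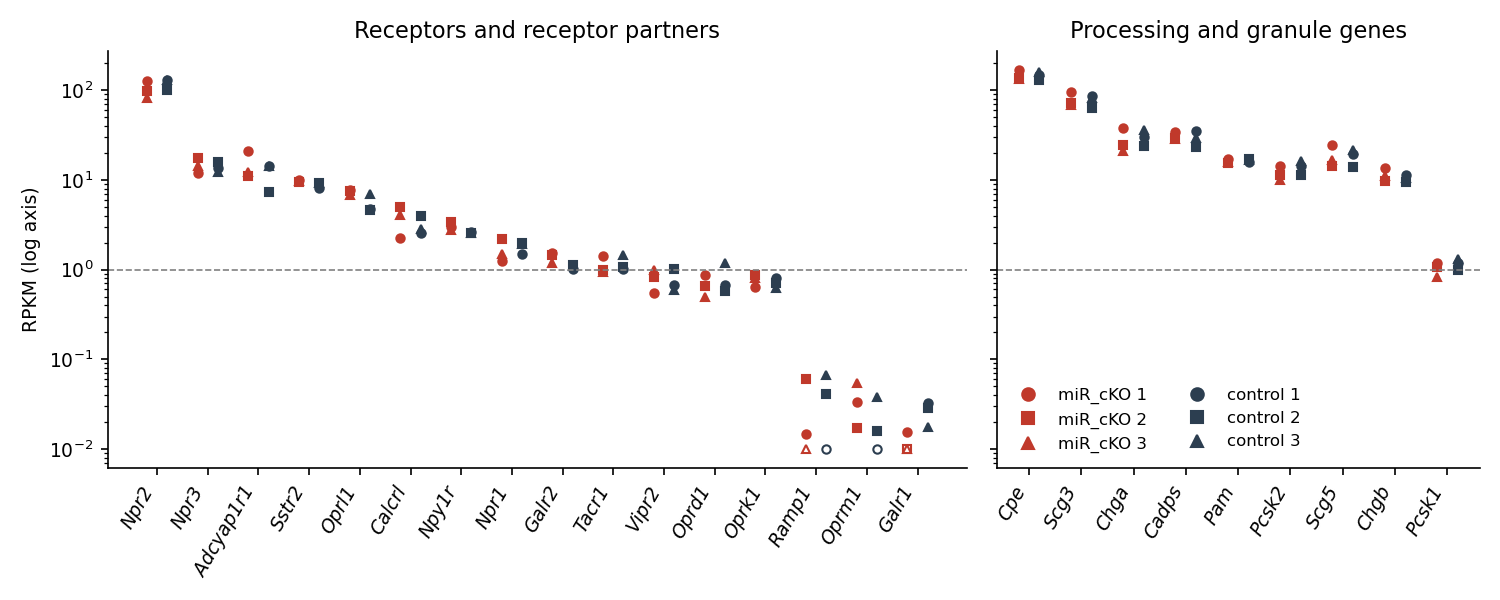
RPKM (log axis) of 16 receptor or receptor partner genes and 9 processing and granule genes in each library, miR_cKO in red left of control in dark blue; open symbols at the bottom are values of 0 and the dashed line is 1 RPKM. Npr2 lies between 80.7 and 129 RPKM and Cpe between 130 and 168 RPKM, while Ramp1, Oprm1 and Galr1 lie far below 1 RPKM in all 6 libraries.

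Most other neuropeptide genes were low or at 0 at this stage. Of 52 in the table, 42 stayed below 1 RPKM in every library and 11 of those were listed at 0 throughout, while 3 were at 1 RPKM or more in all: Nmb, Pmch and Apln. None of the 7 tested passed the threshold. Sct, the secretin gene, was at 0.688, 1.16 and 0.990 RPKM in miR_cKO 1 to 3 and at 1.59, 1.56 and 1.45 RPKM in controls 1 to 3, with all miR_cKO libraries below all controls (log2 change -0.39, SE 0.13, limma adjusted p = 0.774). Apln, the apelin gene, averaged 1.87 RPKM in miR_cKO and 2.63 RPKM in controls. Npff averaged 1.31 RPKM in miR_cKO and 1.10 RPKM in controls, and Nmb, the neuromedin B gene, 2.08 RPKM in miR_cKO and 1.77 RPKM in controls. Cartpt, which encodes the CART peptides, had the same 3 libraries on top as Gal. Its level was 2.67, 0.241 and 0.412 RPKM in miR_cKO 1 to 3 and 1.24, 0.486 and 1.12 RPKM in controls 1 to 3. Cartpt reached 1 RPKM in those 3 libraries alone, so being tested at all put them on top.

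Regulators of nociceptors showed no call either. Of 13 tested factors, 0 passed, with 4 changes above 0 and 9 below, and of 6 effectors 0 passed with all 6 changes below 0 (59.6% of all tested genes had a change below 0). Prdm12, needed for nociceptor formation, was at 73.4 ± 18.6 RPKM in miR_cKO and 90.0 ± 10.1 RPKM in controls (SD, n = 3 each). Ret was at 8.54 ± 1.75 RPKM in miR_cKO and 10.4 ± 1.73 RPKM in controls, and Runx1 at 2.32 ± 1.45 RPKM in miR_cKO and 3.29 ± 1.70 RPKM in controls. Prrxl1 was between 7.80 and 13.1 RPKM in miR_cKO and between 9.70 and 15.99 RPKM in controls. Among the effectors, Ptgir, Scn10a, P2rx3 and Scn9a had log2 changes of -0.44, -0.71, -0.18 and -0.12.

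The promoters were searched for the cyclic AMP response element, since it was first defined in the somatostatin gene. RefSeq promoter windows around the start (GRCm38.p6) were at hand for 8 of the 10 genes. The full element TGACGTCA was found in that of Sst alone, 48 bases before the start, and in 1.79% of all promoters. Its core is TGACG, or CGTCA on the other strand, and the full element also contains it. The core was found in 6 of the 8 genes, Tac1, Calca, Adcyap1, Gal, Sst and Vip, and in 20.8% of all promoters. The percentages count promoter windows and the 6 counts genes, which can have more than 1 window, as Adcyap1 does. The core of Gal lies 19 bases after the start. Shown are Sst, with the full element in capitals (chromosome 16, 23890885 to 23890892, minus strand), and the core in Adcyap1 (chromosome 17, 93198926 to 93198930, plus strand) and Gal (chromosome 19, 3414521 to 3414525, minus strand), which had the same high libraries.
Sst element: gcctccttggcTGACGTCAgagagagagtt
Adcyap1 core: gactaggatgcTGACGtcttttactga
Gal core: cgctgagccggTGACGcggcagctccc
The core was present in Gal, Tac1 and Adcyap1, which shared their high libraries, and also in Sst, Calca and Vip. The part of the core in the level of any gene was not tested.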

How the data were processed

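The authors deposited 1 table with a value for each of 24264 genes in each of 6 libraries and no unit in its header. The values were read as RPKM, which the authors scaled by transcript length and library depth before they deposited them: they are whole multiples of a step that falls with transcript length (Spearman rho -0.919 over 1860 genes with 1 annotated transcript). RPKM and FPKM cannot be told apart. The submitters' processing notes name Bowtie and the mm10 build, and TruSeq Stranded mRNA libraries were made, per the labels' protocols. No source used here names the counter or how shared reads were handled.

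Depth was estimated from the steps, and reads of the 10 genes are the fewest whole reads whose ratios fit (tolerance 0.01 read plus rounding). Genes with 1 RPKM or more in at least 3 libraries were tested on log2(RPKM + 1) with limma 3.58.1 in R 4.3.3 (trend and robust settings, two-sided, Benjamini-Hochberg adjustment, threshold 0.05), which was checked on simulated data. Fold changes on this scale understate the change of low genes. Poisson intervals, permutation tests and figures used Python 3.11.15, NumPy 2.4.6, pandas 2.3.3, SciPy 1.17.1 and matplotlib 3.10.9.

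The genes and lists were chosen with earlier results of these data known. Named were the 10 genes, the up to 4 genes with the smallest p of each of 5 lists (other neuropeptides, receptors, processing, nociceptor factors and effectors), and the 3 genes most like each tested one. Other genes were named for their role after their values were seen. Seed sites used GENCODE M21 transcripts, taking the principal transcript of each gene for the share over all genes. Some genes of the lists are not reported by name here.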

Additional observations from a re-analysis of the deposited data

How the results depend on the processing

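No neuropeptide gene that entered a fit passed the limma threshold: 0 of 10 without the filter, 0 of 1 with a minimum of 10 RPKM (Gal), 0 of 5 with a pseudocount of 0.1, upper quartile scaling, median centring, no trend or a replicate block, and 0 of 4 or 5 without each library in turn. At an unadjusted p under 0.05 there were 2 of 5 with the block, 1 without miR_cKO 1, miR_cKO 3, control 1 or control 2, and 0 in the other fits. The lowest adjusted p of any of them was 0.485, for Tac1 without control 2. The count of genes called over the whole table, 8, was 7 with a pseudocount of 0.1 and with a minimum of 10 RPKM, 9 without the filter, 2 with median centring, 0 with upper quartile scaling, 0 with no trend, 0 with the replicate block and between 0 and 2 without a library. At an unadjusted p under 0.05 these fits held 363 to 1023 genes of the whole table. Without a library the log2 change of Gal ran from -0.85 to 0.44, that of Npy from -0.39 to 0.038, and both turned sign. That of Adcyap1 ran from -0.31 to -0.084, that of Penk from -0.72 to -0.22 and that of Tac1 from -1.06 to -0.51 over the 3 such fits in which it met the filter. The sources used here state no pairing of the libraries by replicate number. Deviations from the group means correlated at 0.36, 0.33 and -0.22 for the numbers 1, 2 and 3 across tested genes. For miR_cKO 3 with control 2 the correlation was 0.52. With 3 libraries in each group, these values cannot decide whether the libraries were paired. With the replicate block the changes of Tac1 and Penk were -0.68 and -0.49, with limma adjusted p = 0.639 and 0.593. Depth limits Nppb and Vip, with 12 and 3 reads over all libraries, and leaves Calcb, Sst and Tac1 with fewer than 10 reads in at least 1 library.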
